A study of Homo sapiens with 10 samples.

Results

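Long intergenic noncoding RNAs (lincRNAs) were examined among the RNAs recovered with FLAG-tagged eIF4A. The count files hold 39472 gene symbols in 7 classes, and the class headed LINC has a count above 0 for 1028 symbols. The rows described here are the 529 whose LINC counts sum to at least 10 over all 10 libraries, apart from LINC01783, which was left out by definition. That choice used the counts themselves, so the presence of these rows is no finding. Their sums ran from 10 to 3942 counts with a median of 41, and 22 rows just inside the threshold had 10 counts while 18 rows just outside it had 9. The rows with 1 to 9 counts, 498 in number, held 1779 counts in all, against 53461 in the 529 rows.

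The cells were HEK 293T, an established human embryonic kidney line, carrying FLAG-eIF4A. The treated groups received silvestrol or CR-1-31-B, each at 20 nM for 1 h, and the DMSO group received the vehicle. All groups were irradiated with ultraviolet light (254 nm, 400 mJ/cm2), and RNA crosslinked to the tagged protein was recovered with anti-FLAG antibody by eCLIP (enhanced crosslinking and immunoprecipitation). There were 3 libraries each for silvestrol, CR-1-31-B and DMSO, and 1 input library without antibody, which carries the number 2 and for which the labels name no treatment. The labels do not say whether the numbered libraries came from separate cultures, so p-values measure the spread between these libraries, which may be technical. RNA levels per treatment were not analysed here, so binding and abundance cannot be told apart. Anti-FLAG libraries held 858733 to 1804732 counts and the input library 2193699.

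LincRNAs are transcripts from between protein-coding genes that are not annotated with a long open reading frame. Some act in the nucleus, some in the cytoplasm, and a few were later found to encode short proteins. eIF4A is the RNA helicase of the cap-binding complex eIF4F and unwinds mRNA leaders before ribosomes scan them. Rocaglates such as silvestrol and CR-1-31-B clamp eIF4A onto RNA, with a preference for runs of purines (A and G).

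The symbols carry a mixture of annotations. All 529 matched a current RefSeq gene, and 58 of them now have another symbol there. In GENCODE release 29, 503 matched by name, current symbol or gene identifier. Of these, 416 are lincRNA genes, 27 antisense, 26 processed transcripts and 15 protein-coding. Merged exons ran from 194 to 28876 bases, with a median of 2609. Exons of 50 rows overlap another gene on the same strand, and those of 96 rows overlap a gene on the other strand. Strand use was not given in the sources used here, so counts of these rows cannot be assigned to 1 gene with certainty. Among them, exons of LINC01089, LINC01578 and LINC02210 overlap the protein-coding RHOF, AC013394.1 and LINC02210-CRHR1 on the same strand. Outside the LINC column the 529 symbols held only 11 counts.

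Because rocaglates prefer purines, the first transcribed bases of the rows at both ends of the treatment comparison were read, together with those of LINC00324, the most counted row, and LINC01578, an RNA with a described role. Each line gives 30 bases, 5′ to 3′ on the transcribed strand, from within the first 50 bases of the RefSeq transcript (GRCh38.p14), and capitals mark the longest run of purines in those 50 bases. The first 4 rows are among the 5 with the highest log2 fold change for both rocaglates over DMSO, and the next 5 had the lowest.
LINC01315, chr22:42369176-42369205, minus strand: agggccAGAGAAAGGGAGAAGGGGGtgggg
LINC00116, chr2:110212498-110212527, minus strand: ccatggcggatgtgtcAGAGAGGAcactgc
LINC01024, chr5:140107981-140108010, minus strand: gacgccGAGGGGAGGAGGAGGAGGcggctc
LINC00578, chr3:177441922-177441951, plus strand: ggtgtagcacgatGGAAtctggtggcttaa
LINC01166, chr10:132965243-132965272, minus strand: agtgggaacggtGGGAAGGtgacaccggtg
LINC01089, chr12:121802917-121802946, minus strand: catcagacacGAAGGAGAGGccaacagatg
LINC00235, chr16:527368-527397, minus strand: cgtggggctcgcGGGGAGccgggctggggc
LINC01588, chr14:50007486-50007515, minus strand: catagttaccactGGGAGcagggtgggccg
LINC01465, chr12:62603405-62603434, minus strand: gctctGAAGAGAGAAAAGcggcggtgtcct
LINC01578, chr15:92882843-92882872, plus strand: atggccGGAGAGGcagcagcaccccgagct
LINC00324, chr17:8224013-8224042, minus strand: tgggttgggcattAGGAAcggcctggcccc

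LINC01315 and LINC01024 have purine runs of 19 and 18 bases, starting at bases 10 and 9 of the transcript. The runs of LINC00116 and LINC00578 are 8 and 4 bases long and start at bases 37 and 15. The lower rows have runs of 7, 10, 6, 5 and 13 bases in the order listed, so long runs stood at both ends. Start windows were found for 374 of the 529 rows. A run of at least 8 purines on the transcribed strand was present in 88 of them (23.5%), against 20.5% of the 27305 windows of all genes, and a run of at least 18 in 6 of them (1.60%), against 0.454%. A run is a description of these letters and not a binding site, and the counts do not show where in a transcript the reads fell.

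The 529 rows together took a similar share of every library. They took 0.332%, 0.492% and 0.451% of all counts in the silvestrol libraries 1 to 3. The CR-1-31-B libraries had 0.340%, 0.415% and 0.549%, and the DMSO libraries 0.398%, 0.502% and 0.483%. The input library had 0.392%. The 3 anti-FLAG groups overlapped, and their means were 0.425% ± 0.0830 for silvestrol, 0.435% ± 0.106 for CR-1-31-B and 0.461% ± 0.0552 for DMSO (SD, n = 3 each). The mean of both rocaglates differed from DMSO by -0.0312 percentage points, less than the SD of any of the groups. With LINC01783 and the rows of 1 to 9 counts put back, the whole LINC column differed by -0.216 points, so the lower share of that column rested mainly on LINC01783, which took 7.54% to 45.5% of the column in the rocaglate libraries and 33.3% to 50.4% in the DMSO libraries. Values are relative: with counts of the ncRNA class taken out of the totals, the share was 0.512% for silvestrol, 0.514% for CR-1-31-B, 0.550% for DMSO and 0.649% for input.

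**Figure D1:**
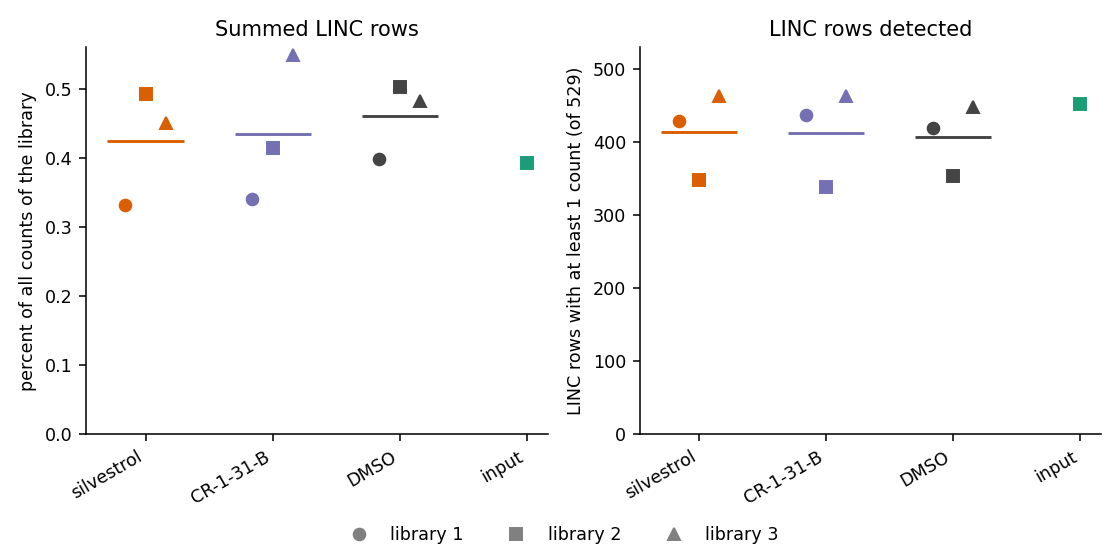
Left, percent of all counts of a library in the 529 LINC rows; right, the number of these rows with at least 1 count. Points are libraries, marker shapes their numbers, and bars group means (3 libraries a group, 1 for input). The groups overlap in the share, from 0.332% to 0.549% in the anti-FLAG libraries, and in every group library 2 detected the fewest rows.

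The number of rows seen varied with the library number. The silvestrol libraries detected 429, 347 and 463 rows, the CR-1-31-B libraries 437, 338 and 462, and the DMSO libraries 419, 353 and 448, against 452 in the input. In each group library 2 was the lowest. The same held over all features (a symbol in 1 class) with at least 10 counts, of which libraries numbered 2 detected 73.3% to 78.0% and the other anti-FLAG libraries 87.4% to 90.0%. Of the rows, 181 had a count in all 10 libraries, 77 had none in the input and 27 had none in any DMSO library. A count of 0 in an anti-FLAG library allows up to 3 counts, or 1.66 to 3.49 CPM (counts per 1000000 counts) of that library. These floors and the intervals below cover counting error only.

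In DMSO, 12 rows led among the 529, which leave out LINC01783. LINC00324 was the highest, with 154, 877 and 287 CPM in the DMSO libraries, and it alone held 7.37% of all counts of the 529 rows. The next 11 were LINC01873, LINC01000, LINC01949, LINC00506, LINC01004, LINC00641, LINC00674, LINC02210, LINC02043, LINC00504 and LINC00685, with means of 136 CPM for LINC01873 down to 74.2 CPM for LINC00685. Per kilobase of merged exons, among the 503 rows with a GENCODE match, which leaves out LINC01000, the order of levels in DMSO changed. LINC00324 was first at 211 CPM per kb, followed by LINC00685 at 173, LINC00674 at 123, LINC01004 at 92.1 and LINC01873 at 80.7 CPM per kb.

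LINC00324 differed between libraries by their number. It stood at 158, 719 and 143 CPM in the silvestrol libraries, at 180, 765 and 141 CPM in the CR-1-31-B libraries, at the DMSO values above, and at 16.4 CPM in the input. Library 2 was the highest in each group, while the treatment groups overlapped. With the number as a term in the edgeR fit, LINC00324 was the 1 of 132 tested rows called for an effect of number (quasi-likelihood F test, adjusted p = 3.36e-06), against 1.15% of all 24713 features tested, and 7 rows had an unadjusted p under 0.05 (5.30%, against 14.4%). The test of number was chosen after the data were seen, so its p describes the pattern and is no independent support for it. Library 1 was the highest in all 3 anti-FLAG groups for 4 tested rows (3.03%, against 7.84% of all features), library 2 for 8 (6.06%, against 6.12%) and library 3 for 16 (12.1%, against 6.62%). LINC00324 took 14.6% to 18.4% of the counts of the 529 rows in the libraries numbered 2 and 2.56% to 5.95% in the other anti-FLAG libraries. Without it, the summed share with both rocaglates differed from DMSO by -0.0224 points. Its log2 fold change for both rocaglates over DMSO was -0.33 (SE 0.56, edgeR adjusted p = 0.898), and 0.75 without DMSO library 2.

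**Figure D2:**
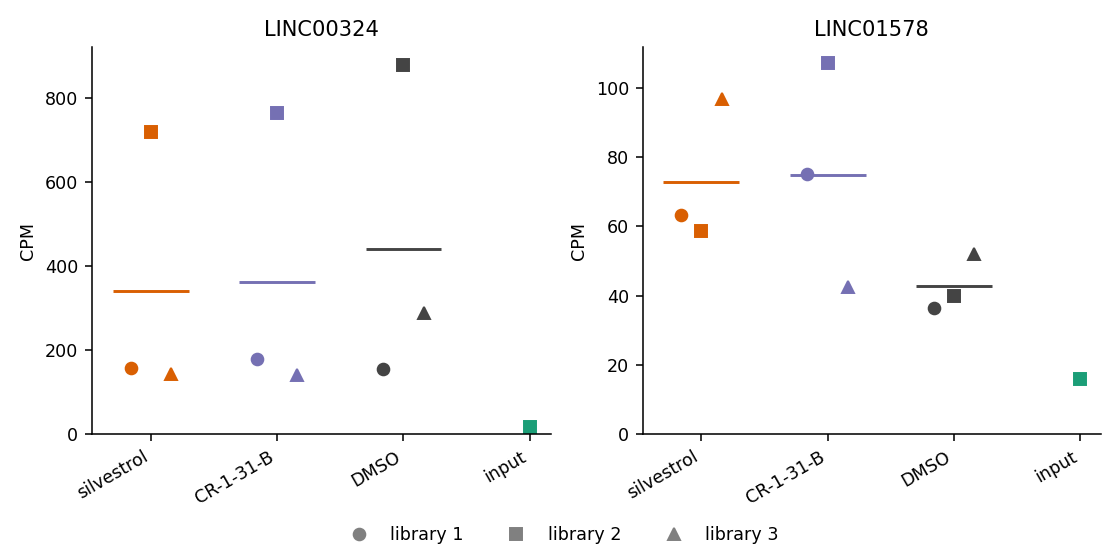
CPM of LINC00324 and LINC01578 in each library, by group; marker shapes are library numbers and bars group means. LINC00324 is highest in library 2 of every anti-FLAG group (719, 765 and 877 CPM), whereas LINC01578 has all 3 silvestrol libraries and 2 of the 3 CR-1-31-B libraries above the DMSO libraries.

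The anti-FLAG recovery of DMSO cells was set against the input. There is 1 input library, so these are folds of pooled DMSO shares over the input share without a replicate check, and the input need not come from DMSO cells. A fold could be given for 455 rows, with a floor of 3 counts, and 74 rows were at or under the floor in both. The median fold was 1.18, against 1.27 over all features, 2.84 for 5′ leaders, 1.03 for coding sequences and 1.1 for 3′UTRs. At least 4-fold higher in pooled DMSO, with each DMSO library above the input, were 26 rows (5.71%), against 10.3% of all features, and at least 4-fold lower, with each DMSO library below the input, were 12 rows (2.64%), against 1.5%. The ncRNA class took 39.5% of the input counts and 13.3% to 17.3% of the DMSO counts. With that class taken out of the totals, the median fold was 0.85 for the rows, against 0.913 over all features, both below 1. In that setting 8 rows were at least 4-fold higher and 30 at least 4-fold lower. The shares of all features in that setting are not given here, so these counts are not read as a result about the rows.

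Ratios to the input were ranked among rows with at least 30 counts in the 3 DMSO libraries and the input. LINC00324 had the highest ratio, with 1378 DMSO counts against 36 input counts, or 27.2 (95% interval 19.5 to 39.0). DMSO libraries 1 to 3 held 165, 942 and 271 of these counts, a spread that the interval does not cover. The ranking used the floor of 3 counts. Without that floor, LINC01504 and LINC01266 had ratios of 20.6 and 10.3 on 1 and 2 input counts, with intervals of 3.41 to 841 and 2.60 to 89.1. LINC00368 had 11.2, 24.2 and 14.8 CPM in DMSO against 2.28 CPM in the input, a ratio of 7.39 (2.97 to 23.7). LINC00114 had a ratio of 7.34 (2.29 to 37.5) that came from DMSO library 2, at 25.1 CPM, while DMSO libraries 1 and 3 had 1.87 and 2.12 CPM against 1.37 CPM in the input.

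At the other end of the same ranking, LINC01502 had 4 DMSO counts against 26 input counts, a ratio of 0.109 (0.0277 to 0.315). LINC00311, LINC01537, LINC01970 and LINC00581 followed, with ratios of 0.254 to 0.323. Of the 12 rows leading in DMSO, some were also lower in DMSO than in the input: LINC01873 had 138, 143 and 125 CPM in DMSO against 293 CPM in the input (ratio 0.464, 0.409 to 0.525). LINC00506 had 108, 110 and 95.4 CPM in DMSO against 210 CPM in the input, and LINC00504 had 93.3, 67.0 and 71.0 CPM against 165 CPM. All 3 rows were lower than the input in each DMSO library.

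**Figure D3:**
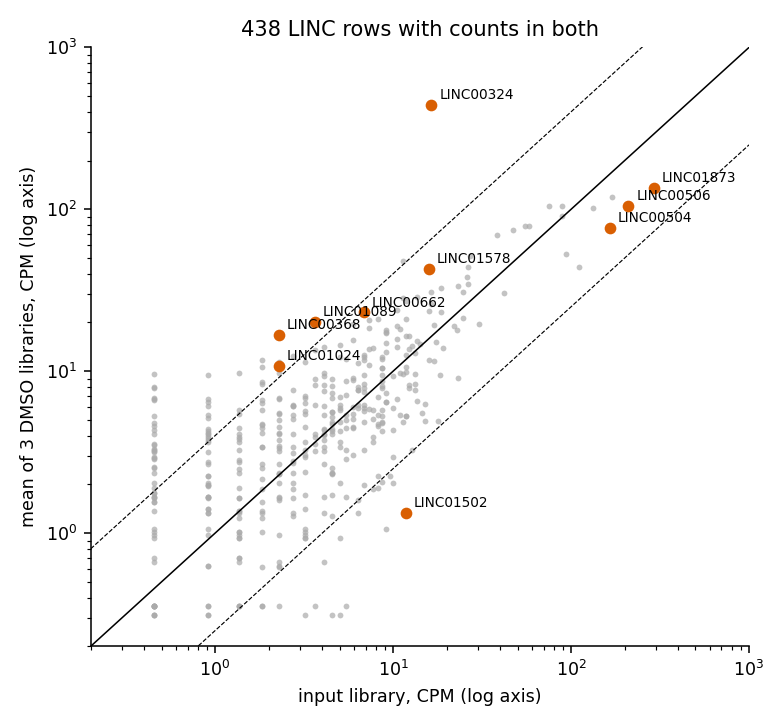
Mean CPM of the 3 DMSO libraries (vertical) against CPM of the input library (horizontal), both on log axes, for the 438 LINC rows with counts in both. The solid line marks equal values and the dashed lines 4-fold differences; LINC00324 lies far above the upper dashed line, and LINC01873, LINC00506 and LINC00504 lie below the solid line.

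The treatment comparison asked whether rocaglates changed the recovery of these RNAs with eIF4A. No row was called in any of the 4 contrasts, of which the 3 against DMSO share the same DMSO libraries. The edgeR quasi-likelihood test with Benjamini-Hochberg adjustment over 24713 features covered 132 of the 529 rows; the other 397 were removed by the filter on low counts. For silvestrol against DMSO, 0 of the 132 had an adjusted p under 0.05, against 0.255% of all features tested, and 4 had an unadjusted p under 0.05 (2 higher, 2 lower), against 8.09%. For CR-1-31-B against DMSO, 0 were called, against 0.291%, and 9 had an unadjusted p under 0.05 (3 higher, 6 lower), against 8.86%. For both rocaglates against DMSO, 0 were called, against 0.49%, and 11 had an unadjusted p under 0.05 (5 higher, 6 lower), against 10%. For CR-1-31-B against silvestrol, 0 were called, against 0%, and 0 had an unadjusted p under 0.05, against 2.46%.

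DESeq2 also called 0 rows in each contrast, of 34, 41, 41 and 529 rows with an adjusted p in the same order, and called 2.87%, 2.88%, 4.41% and 0% of all features. With the library number as a block in edgeR, again 0 rows were called in each, against 1.28%, 1.48%, 2.04% and 0.00405% of all features, and 10, 13, 13 and 1 rows had an unadjusted p under 0.05, against 11.4%, 11.9%, 13.7% and 4.22%. The smallest adjusted p of a row, without the block, was 0.480 for silvestrol, 0.316 for CR-1-31-B and 0.269 for both against DMSO. Called features had at least a log2 fold change of 1.72 (silvestrol), 1.68 (CR-1-31-B) or 1.31 (both) in size. The median SE of the rows was 0.70, 0.70 and 0.60.

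Fold changes of the tested rows lay around 0. The median log2 fold change was -0.19 for silvestrol and -0.20 for CR-1-31-B over DMSO, against -0.04 and -0.03 over all features. Medians of 5′ leaders were 0.40 and 0.35, and those of 3′UTRs -0.26 and -0.27. Of the rows, 44.7% with silvestrol and 40.9% with CR-1-31-B were above 0, against 47.7% and 48% of all features. For both over DMSO the median was -0.13 and 41.7% were above 0, against 46.5% of all features. For CR-1-31-B over silvestrol the median was -0.0079 and 49.2% were above 0, against 51%. The medians shifted when 1 library was left out, a step that also changed which rows passed the filter. The silvestrol median was 0.058 without DMSO library 3 (162 rows) and 0.025 without silvestrol library 1 (169 rows). The CR-1-31-B median was 0.0058 without CR-1-31-B library 1. With no filter (504 rows) the medians were -0.0051 for silvestrol and -0.014 for CR-1-31-B.

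**Figure D4:**
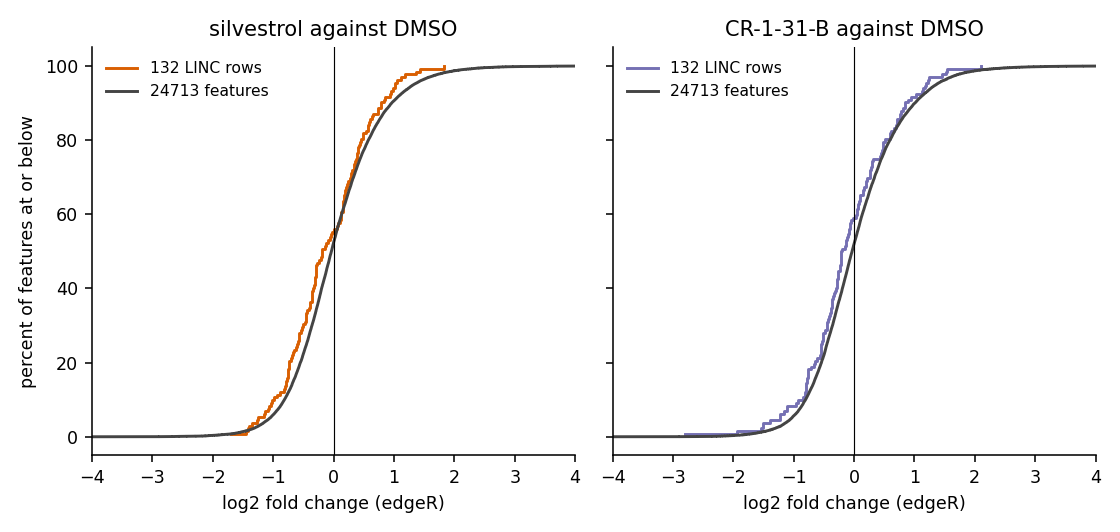
Cumulative percent of features (vertical) at or below a log2 fold change (horizontal, edgeR) for silvestrol over DMSO (left) and CR-1-31-B over DMSO (right). Coloured lines are the 132 tested LINC rows and dark lines all 24713 tested features; the LINC lines cross 0 at a higher percent, with medians of -0.19 and -0.20 against -0.04 and -0.03.

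Groups without overlap were counted over the same 132 rows. With silvestrol, 7 rows had every library above all DMSO libraries (5.30%, against 7.48% of all features) and 15 had every library below (11.4%, against 7.52%). With CR-1-31-B these were 5 rows above (3.79%, against 8.42%) and 11 below (8.33%, against 6.26%). For both rocaglates, LINC01024 was the 1 row above in all 6 libraries (0.758%, against 3.49%), and LINC00997, LINC01089, LINC01535 and LINC01588 were the 4 below in all 6 (3.03%, against 2.47%).

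The rows with the highest fold changes for both rocaglates are given as values, since none passed the test. LINC01024, the mitosis-associated MALINC1, had 26.6, 29.9 and 24.5 CPM with silvestrol, 24.2, 28.1 and 42.6 CPM with CR-1-31-B, and 3.73, 8.38 and 20.1 CPM with DMSO. All 6 rocaglate libraries stood above the 3 DMSO libraries, of which library 3 was the nearest. Its log2 fold change for both was 1.45 (SE 0.51, edgeR adjusted p = 0.269), and the adjusted p ran from 0.0865 with the replicate block to 0.648 over the alternatives. In the input it had 2.28 CPM, and its DMSO to input ratio was 4.54 (1.76 to 14.9).

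LINC01315 had 18.8, 12.9 and 26.8 CPM with silvestrol, 11.2, 29.7 and 4.37 CPM with CR-1-31-B, and 5.6, 8.38 and 2.12 CPM with DMSO. The silvestrol libraries lay above all DMSO libraries, whereas CR-1-31-B library 3 lay within the DMSO range. The log2 fold change was 1.83 (SE 0.75) for silvestrol, 1.47 (SE 0.75) for CR-1-31-B and 1.65 (SE 0.68) for both, with an edgeR adjusted p = 0.382 for both. LINC00116 is the gene now named MTLN, which encodes mitoregulin, a small mitochondrial protein. It had 8.31, 18.9 and 6.99 CPM with silvestrol, 23.0, 40.7 and 12 CPM with CR-1-31-B, and 3.73, 12.1 and 1.06 CPM with DMSO. Both treated groups overlapped DMSO, and library 2 was the highest in each group. The log2 fold change was 2.11 (SE 0.75) for CR-1-31-B, with an edgeR adjusted p = 0.321 and, with the replicate block, 0.0769. LINC00578 and LINC00330 had log2 fold changes of 1.33 and 1.09 for both rocaglates (edgeR adjusted p = 0.635 and 0.682).

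**Figure D5:**
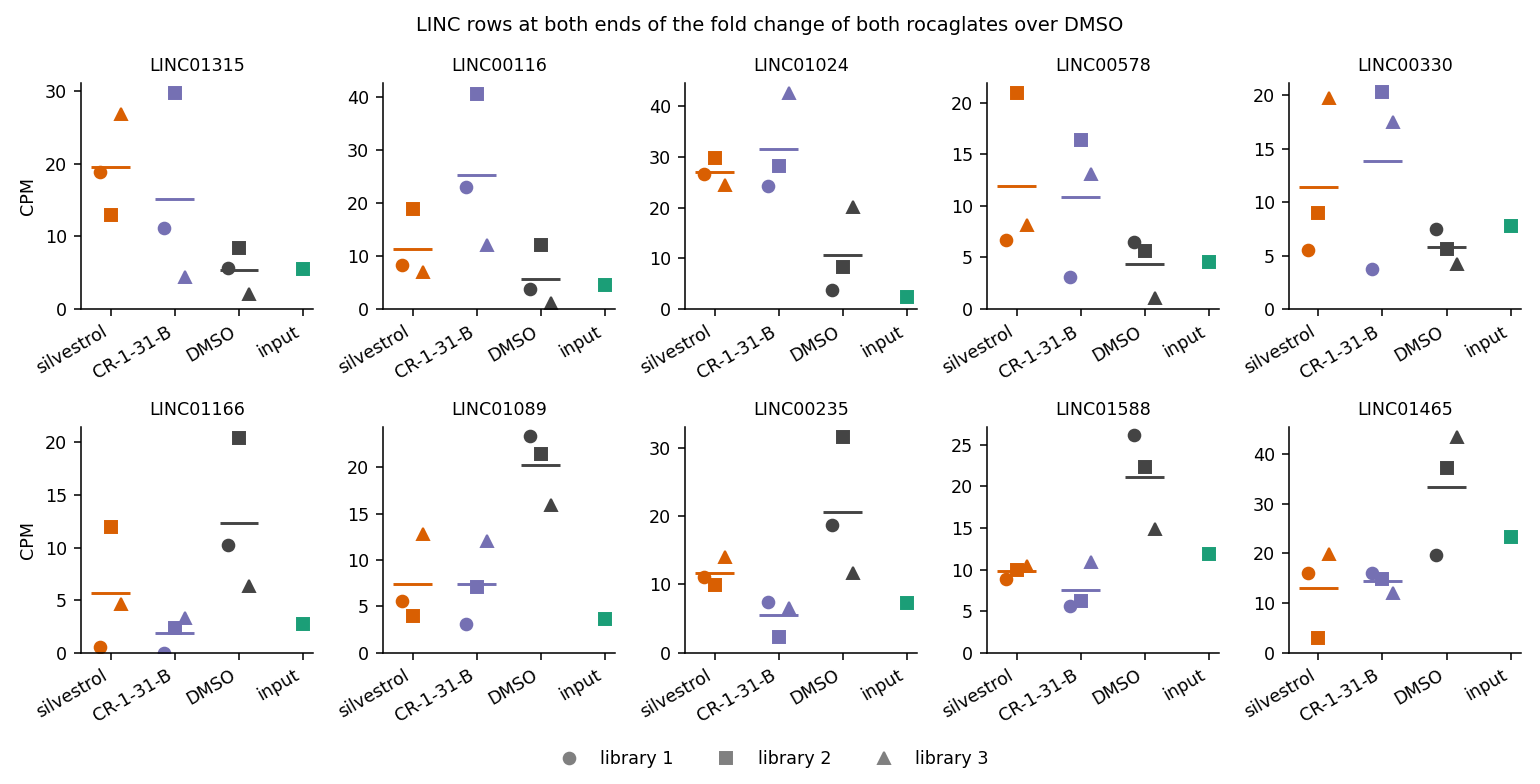
CPM by library of the 5 tested LINC rows with the highest (top) and the 5 with the lowest (bottom) log2 fold change for both rocaglates over DMSO; marker shapes are library numbers and bars group means. The rows were picked by this fold change, so the direction is set by the choice; LINC01024, LINC01089 and LINC01588 are the 3 among them in which no rocaglate library overlaps DMSO.

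At the low end, LINC01089 had 5.54, 3.98 and 12.8 CPM with silvestrol, 3.10, 7.04 and 12 CPM with CR-1-31-B, and 23.3, 21.4 and 15.9 CPM with DMSO. LINC01588 had 8.87, 9.96 and 10.5 CPM with silvestrol, 5.59, 6.25 and 10.9 CPM with CR-1-31-B, and 26.1, 22.3 and 14.8 CPM with DMSO. In both rows all 6 rocaglate libraries were below the 3 DMSO libraries. The log2 fold changes for both rocaglates were -1.47 (SE 0.59) for LINC01089 and -1.30 (SE 0.52) for LINC01588, with edgeR adjusted p = 0.364 and 0.365. LINC01089 was 1 of the 26 rows at least 4-fold higher in DMSO than in the input, with a ratio of 5.59 (2.67 to 13.5). The row was picked by a low fold over the same DMSO libraries, which favours a high ratio, so nothing further is read from it.

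The GENCODE exons of LINC01465 overlap the let-7i microRNA gene in position, and strand was not compared. LINC01465 had 16.1, 2.99 and 19.8 CPM with silvestrol, 16.1, 14.9 and 12 CPM with CR-1-31-B, and 19.6, 37.2 and 43.5 CPM with DMSO. The CR-1-31-B libraries were below all DMSO libraries, and silvestrol library 3 just exceeded DMSO library 1. Its log2 fold change for both was -1.29 (SE 0.48, edgeR adjusted p = 0.310). LINC01166 had 0.554, 11.9 and 4.66 CPM with silvestrol, 0, 2.35 and 3.28 CPM with CR-1-31-B, and 10.3, 20.5 and 6.36 CPM with DMSO, and LINC00235 had 2.35 to 7.45 CPM with CR-1-31-B against 11.7 to 31.6 CPM with DMSO. In each of the pair the CR-1-31-B libraries were below all DMSO libraries and the silvestrol libraries overlapped them. The log2 fold changes for CR-1-31-B were -2.80 (SE 1.22) and -1.94 (SE 0.69), with edgeR adjusted p = 0.484 and 0.316.

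The 12 rows with the highest levels in DMSO are given next. LINC01949 had 56.5, 65.7 and 81.5 CPM with silvestrol, 64.0, 48.5 and 90.6 CPM with CR-1-31-B, and 88.7, 109 and 118 CPM with DMSO. The silvestrol libraries lay below all DMSO libraries, and CR-1-31-B library 3 overlapped them. Its log2 fold change for both was -0.64 (SE 0.30, edgeR adjusted p = 0.481), the lowest of the 12 leading rows. Log2 fold changes of the 12 for both rocaglates were -0.64 to -0.07, with edgeR adjusted p of 0.481 to 0.973. The rows were picked by their DMSO level, the denominator of this fold change, which favours values below 0, so nothing is read from the shared sign. LINC01000, LINC00674, LINC02043 and LINC00324 were above 0 when 1 library was left out.

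Rows whose symbols belong to genes of small proteins were looked at apart. Of 15 such symbols listed, 6 were among the 529 rows and 3 were tested, and 0 of the 3 were called in any contrast. LINC00094 (BRD3OS) had 61.5, 55.8 and 65.2 CPM with silvestrol, 59.6, 51.6 and 75.3 CPM with CR-1-31-B, and 37.3, 56.8 and 37.1 CPM with DMSO. The groups overlapped through DMSO library 2, and the log2 fold change for both was 0.48 (SE 0.33, edgeR adjusted p = 0.689). LINC00998 (SMIM30, a small membrane protein) gave -0.56 for both (SE 0.45, edgeR adjusted p = 0.749), and LINC00116 is given above. The median log2 fold change of the 3 was 0.48, against -0.05 over all features. A different group was the 15 rows typed protein-coding in GENCODE release 29, which were not chosen for small proteins. It includes LINC01279, matched to CCDC80, and LINC00889, matched to FGF13. Of these 15 rows, 8 were tested, with a median of -0.21 and 3 of 8 above 0.

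Of 20 symbols of lincRNAs with a described RNA role, 14 were among the rows and 6 were tested, with 0 called. LINC01578 is CHASERR, an RNA that restrains expression of the neighbouring chromatin remodeller gene CHD2. It had 63.2, 58.8 and 96.7 CPM with silvestrol, 75.1, 107 and 42.6 CPM with CR-1-31-B, 36.4, 40.0 and 51.9 CPM with DMSO, and 16 CPM in the input. The silvestrol libraries lay above all DMSO libraries, and CR-1-31-B library 3 lay among them. The log2 fold change for both rocaglates was 0.79 (SE 0.35, edgeR adjusted p = 0.443), and the DMSO to input ratio was 2.66 (1.82 to 3.98). The other 5 tested, LINC-PINT, LINC00472, LINC00662, LINC00665 and LINC01138, had log2 fold changes of -0.58 to 0.53, and the median of the 6 was 0.31 with 4 above 0. Of 4 listed host transcripts of small or circular RNAs, 2 were among the rows and 1 was tested, LINC00632, the CDR1-AS host, which gave -0.26 for both rocaglates (SE 0.37, edgeR adjusted p = 0.877).

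The purine runs shown above were set against the fold changes over the 97 tested rows with a start window. The 20 rows with a run of at least 8 purines had a median log2 fold change for both rocaglates of -0.0045 and the other 77 a median of -0.07. For silvestrol the medians were 0.18 and -0.05, and for CR-1-31-B 0.07 and -0.15. In each contrast the middle 50% of the 2 sets overlapped. The rows with the longest runs, LINC01315 and LINC01024, were both at the high end, but LINC01465 and LINC01089, with runs of 13 and 10, were at the low end.

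The rocaglates, both of which carry the cyclopenta[b]benzofuran core, were compared directly at the matched dose of 20 nM and time of 1 h. In that contrast log2 fold changes of CR-1-31-B over silvestrol ran from -1.67 to 1.40 over the 132 rows. LINC01504 had 11.2, 12.5 and 26.2 CPM with CR-1-31-B against 3.32, 6.97 and 8.15 CPM with silvestrol, groups that did not overlap. It had the highest value, 1.40 (95% interval -0.30 to 3.10). For LINC01024 the difference was 0.18 (-0.90 to 1.26), for LINC01578 0.02 (-0.78 to 0.83) and for LINC00116 1.12 (-0.35 to 2.58). Intervals of this width do not show that the compounds act alike on these RNAs. Every library of CR-1-31-B was above silvestrol in 5 rows (3.79%, against 4.77% of all features) and below in 4 (3.03%, against 3.02%).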

How the data were processed

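The counts deposited by the authors are whole read counts per gene symbol in 7 classes, per the file headers, 1 file per library. Per the submitters' processing notes, cutadapt and Bowtie 1.1 were used on the reads. Build, annotation, duplicate handling and strand use are not given in the sources used here, and reads per row can include PCR copies. Each file had 1 blank line, which was left out. No 2 libraries of a group repeated each other's counts. The rows and gene lists were chosen with earlier results of these data known.

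All features of the 9 anti-FLAG libraries were fitted with edgeR 4.0.16 (R 4.3.3): filterByExpr by group, TMM, quasi-likelihood test, Benjamini-Hochberg adjustment over 24713 features, called at an adjusted p under 0.05. This step was tested on simulated data. CPM (counts per 1000000 counts) use total counts of a library. Intervals of single ratios are exact for counting error only (Clopper-Pearson, 95%) and do not cover the spread between libraries. Rows named were the 12 highest in DMSO, the 5 highest and 5 lowest for both rocaglates over DMSO and for DMSO over input (the last among rows with at least 30 counts in those 4 libraries), and those on 3 lists; LINC00997 and LINC01535 were named after their values were seen. Alternatives were DESeq2 1.42.0 and its size factors, no TMM, no filter, other floors and folds, and leaving out each library.

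The labels number the anti-FLAG libraries 1 to 3 in each group. Over all features, deviations from group means correlated at 0.102 to 0.263 between libraries of the same number (9 pairs) and at -0.203 to 0.0163 between others. Deviations of a group sum to 0, so the ranges are not independent. Over LINC rows they were -0.116 to 0.279 and -0.181 to 0.0665, which overlap. The main fit used group means and no pairs. Number entered as a block only in an alternative fit, on the data and not on a statement in the labels. The start sequences come from RefSeq and the exon lengths from GENCODE release 29.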

Additional observations from a re-analysis of the deposited data

How the results depend on the processing

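No LINC row was called under any alternative but 1: without the filter on low counts, 1 row was called for CR-1-31-B over DMSO, LINC00303 (edgeR adjusted p = 0.0438), with 43 of its 44 counts in CR-1-31-B library 3. The replicate block changed no call; with it the median for CR-1-31-B over silvestrol was 0.0076, and with total counts 0.039. Leaving out single libraries gave median log2 fold changes of -0.26 to 0.058 for silvestrol over DMSO, -0.35 to 0.0058 for CR-1-31-B over DMSO, -0.24 to 0.094 for CR-1-31-B over silvestrol and -0.24 to -0.026 for both over DMSO, and a difference of -0.0626 to -0.0108 points in the summed share. The whole LINC column differed by -0.216 points. Fits without a library were filtered anew, so their medians cover other sets of rows. The 26 rows at least 4-fold higher in DMSO than in the input became 8 with ncRNA counts taken out, 4 with a floor of 10 counts and 80 at 2-fold, and 25 to 28 with a DMSO library left out. The 12 lower rows became 30, 0 and 61 under the same changes, 7 among rows with at least 30 counts, and 6 to 12 with a DMSO library left out, 6 being without DMSO library 2. Shares of all features under these changes are not given here, so the counts are not read as results about the rows. For both rocaglates over DMSO, log2 fold changes crossed 0 on leaving out 1 library in 7 named rows, with ranges of -0.93 to 0.75 for LINC00324, -0.34 to 0.22 for LINC01000, -0.23 to 0.0010 for LINC00674, -0.26 to 0.43 for LINC02043, -0.43 to 0.54 for LINC01504, -0.036 to 0.78 for LINC00665 and -0.38 to 0.0011 for LINC00632. The cause was not tested. Of the 756 values of single rows under alternatives, 743 kept their direction and side of the threshold. Depth limits these results: 397 of 529 rows were too low to test, and 1 input library gives no replicate error.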

Other observations

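Of the 529 rows, 24 (4.54%) had more than 50% of their counts in 1 library, against 4.27% of all features with at least 10 counts. LINC00303 had 47.0 CPM in CR-1-31-B library 3, 1 count in silvestrol library 3, and none in any other library. LINC01541 had 20 of its 30 counts in DMSO library 2.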
